A study of Mus musculus with 4 samples.

Results

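A set of 9 genes of the complement system (C1s1, C1ra, C3, C4b, Cfb, Serping1, Cd55, Cd59a and Cd46) was read across 4 mouse oral cancer cell lines, as 9 of the 34721 gene entries in the expression table. The 9 genes were selected with the expression values of these lines already known, so their levels are given as a description and were not tested. AOC3 and AOC11 were grown from primary oral tumors of 2 C57BL/6 mice, and AOC3-LN and AOC11-LN from metastases in those mice's lymph nodes. Tumors were induced by painting the carcinogen dimethylbenzanthracene (DMBA) on the cheek lining, for 28 weeks in mouse 3 and 31 weeks in mouse 11, and the study used male mice of 6 to 8 weeks of age. Per the methods, cells were grown under the flank skin of other C57BL/6 mice, and fibroblasts were removed, before the lines were set up. The labels name no treatment of the cultured lines. Each line was 1 library, so a difference between lines has no replicate check, and 2 lines of a mouse share that mouse. The difference between AOC3 and AOC11 lines cannot be told apart from the difference between 2 animals.

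Complement is a cascade of proteases, mostly secreted, that marks cells and microbes for removal. In the classical pathway the recognition protein C1q carries the proteases C1r and C1s, and active C1s cleaves C4 and C2 to form an enzyme that splits C3. The alternative pathway uses factor B to amplify the same step, and later components build a pore in the target membrane. Inhibitors in plasma and on the cell surface protect the body's own cells. The liver makes most plasma complement, and epithelial cells and tumors can also make parts of it.

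Expression was given in FPKM (a fragment count corrected for how long the transcript is and how deeply the sample was sequenced). The spacing of low FPKM values of 9528 genes with a single transcript gave estimated depths of 33860000 fragments in AOC11, 32460000 in AOC11-LN, 33680000 in AOC3 and 28320000 in AOC3-LN. At these depths, between 70.8% and 73.8% of the low values lay within 0.1 of a whole fragment, on 2727 to 3111 values per line. Evenly spread values would give 20% at a depth fixed in advance. The depths were fitted to these same values, so the shares are no independent check of them. Differences between lines are on the scale of log2(FPKM + 1) after quantile normalization, a scale that understates the change of low genes. A gene was counted as past the fold when its log2 difference was above 1 or below -1 and it reached 1 FPKM in at least 1 line, as 14165 entries did.

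Among the 9 genes, 4 reached 1 FPKM in at least 1 line (C1s1, C1ra, C3 and Cd59a), and 5 (C4b, Cfb, Serping1, Cd55 and Cd46) stayed below it in all 4 lines. Of these 5, C4b and Cfb lie on chromosome 17, Serping1 on chromosome 2, and Cd55 and Cd46 on chromosome 1. The classical pathway proteases C1s1 and C1ra were high in both AOC11 lines and near 0 in both AOC3 lines. C3, the central component, was present in all 4 lines and lowest in AOC3-LN. The membrane inhibitor Cd59a was highest in AOC11-LN.

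C1s1 encodes the C1s protease of the classical pathway and lies at chr6:124530345-124542359 on the minus strand (mm10), with 12 exons in its longest transcript. It was read at 50.3 FPKM in AOC11, 22.5 in AOC11-LN, 0.249 in AOC3 and 0.0257 in AOC3-LN. The 2 AOC11 lines were high, the 2 AOC3 lines were near 0, and the lines of the 2 mice did not overlap. These levels correspond to about 4701 fragments in AOC11, 2036 in AOC11-LN, 23.3 in AOC3 and 2.0 in AOC3-LN. In bulk RNA, fewer cells with the transcript and less transcript per cell cannot be told apart. The lower AOC11 line was 90.5 times the higher AOC3 line. The log2 difference was 5.34 between the primary tumor lines and 4.48 between the lymph node lines. Within mouse 11, AOC11 was 2.23 times AOC11-LN, a log2 difference of -1.12 for AOC11-LN minus AOC11.

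C1ra encodes the C1r protease, which activates C1s, and lies at chr6:124512405-124523443 on the plus strand, with 11 exons. C1ra had 6.87 FPKM in AOC11, 6.92 in AOC11-LN, 0.200 in AOC3 and 0.0250 in AOC3-LN. The 2 AOC11 lines were nearly level with each other, unlike for C1s1, and both were above both AOC3 lines. The fragments behind these values were about 650 in AOC11, 634 in AOC11-LN, 19.0 in AOC3 and 2.0 in AOC3-LN. The log2 difference was 2.71 between the primary tumor lines and 2.89 between the lymph node lines.

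Mice carry a second copy of each protease gene close by, and both copies were also read. C1rb had 1.69 FPKM in AOC11, 1.65 in AOC11-LN, 0.0654 in AOC3 and 0 in AOC3-LN. C1s2 had 1.41 FPKM in AOC11, 0.647 in AOC11-LN, 0.0119 in AOC3 and 0.0141 in AOC3-LN. All 4 protease genes were therefore higher in each AOC11 line than in each AOC3 line. The share of all genes that divide this way is not given, so nothing is read from that count. C1s2 was past the fold between the primary tumor lines, with a log2 difference of 1.36, and not between the lymph node lines, at 0.57. With a pseudocount of 0.1 in place of 1 it passed between the lymph node lines too, at 2.34. The copies are close in sequence, so fragments may have been divided between them. The coding sequences of C1ra and C1rb were 97.9% identical, and 43.7% of the 100-base windows of C1ra occurred unchanged in C1rb. C1s1 and C1s2 were 95.7% identical, with 11.3% of the windows of C1s1 unchanged in C1s2. Sums over both copies avoid that division. C1r copies summed to 8.56 FPKM in AOC11, 8.58 in AOC11-LN, 0.265 in AOC3 and 0.0250 in AOC3-LN. C1s copies summed to 51.7 FPKM in AOC11, 23.2 in AOC11-LN, 0.261 in AOC3 and 0.0397 in AOC3-LN. Summed C1s was 6.04 times summed C1r in AOC11 and 2.70 times in AOC11-LN.

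The 4 protease genes lie within 124 kb of chromosome 6, from 124512405 to 124636085. Within 200 kb on either side, 18 other protein-coding genes are annotated and 14 of them reached 1 FPKM. None of those 14 was past the fold in the same direction at both sites on the main scale, beside 4.81% of all genes. With a pseudocount of 0.1, a check added after the values were seen, 2 of them were, C1rl and Eno2, both higher in the AOC11 lines. The share of all genes at both sites is not given for that setting. Between the primary tumor lines 3 of the 14 were past the fold, beside 11.9% of all genes. Between the lymph node lines 1 was, beside 16.3% of all genes. With 14 genes counted, nothing is read from these counts. The nearest neighbor beyond C1s2, Lpcat3, a phospholipid-remodeling enzyme, had 25.1 FPKM in AOC11, 34.2 in AOC11-LN, 21.2 in AOC3 and 22.4 in AOC3-LN. On the other side C1rl, which encodes a C1r-like protease, had 0.491 FPKM in AOC11, 1.06 in AOC11-LN, 0.0208 in AOC3 and 0 in AOC3-LN. It was higher in the AOC11 lines without passing the fold, with log2 differences of 0.65 and 0.88, and passed at 2.53 and 3.22 with the pseudocount of 0.1. Between the lymph node lines it also passed without quantile normalization, at 1.04, and with median scaling, at 1.02. Eno2, the enolase gene of neurons, had 1.63 FPKM in AOC11, 0.912 in AOC11-LN, 0.0778 in AOC3 and 0.147 in AOC3-LN, with log2 differences of 1.39 and 0.55, or 3.45 and 1.597 with the pseudocount of 0.1. Gm16567, a gene annotated within C1s1 on the other strand, had 33.5 FPKM in AOC11, 16.5 in AOC11-LN, 0.575 in AOC3 and 0 in AOC3-LN. The library kit kept strand, but the methods give default settings for TopHat2 and Cufflinks, which treat reads as unstranded, so fragments of C1s1 and Gm16567 may have been shared.

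**Figure D1:**
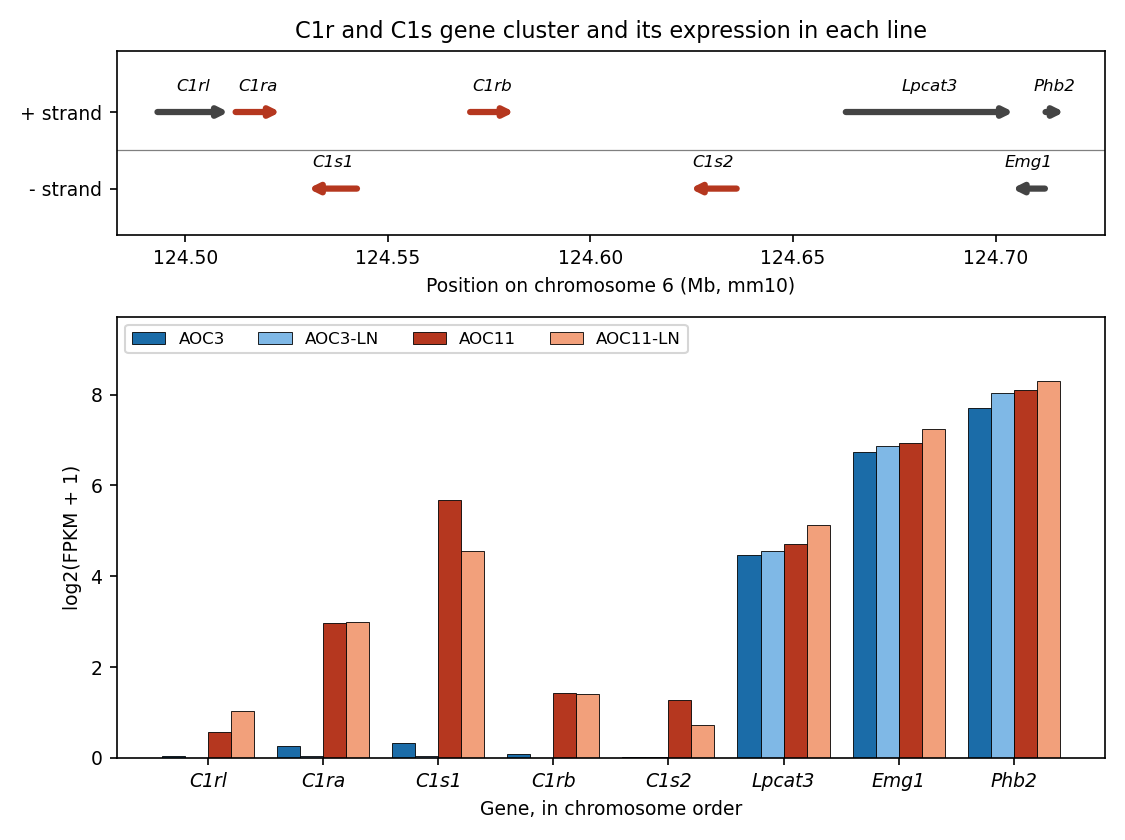
The upper panel maps protein-coding genes around the C1r and C1s cluster on chromosome 6 (position in Mb, mm10), with arrows in the direction of transcription and the 4 cluster genes in red. The lower panel gives log2(FPKM + 1) of each gene in each of the 4 lines, 1 library per bar, and shows the 4 protease genes higher in both AOC11 lines. The flanking gene C1rl was also higher there, with 0.491 FPKM in AOC11, 1.06 in AOC11-LN, 0.0208 in AOC3 and 0 in AOC3-LN. Lpcat3, Emg1 and Phb2 were expressed in all 4 lines and were higher in both AOC11 lines by less than the fold.

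Sequences before the gene starts were taken from RefSeq (GRCm38.p6). A window was obtained for 6 of the 9 genes and 42 of the 57 genes of a wider complement list, and the other genes were not searched. C1s1 and C1s2, which were higher in each AOC11 line than in each AOC3 line, and C3, whose levels did not divide by mouse, are shown for the 250 bases before the annotated start. Capitals mark matches to 4 motifs searched on both strands, which were the kappa-B motif, TTCNNNGAA (bound by STAT proteins), GAAANNGAAA (bound by interferon regulatory factors) and TTGCNNAA (bound by C/EBP proteins). Matches to these occurred in 3.90%, 7.02%, 2.98% and 9.56% of all 32851 RefSeq windows of this length. The C1s1 window shown (chr6:124542360-124542609, minus strand) and the C3 window (chr17:57228137-57228386, minus strand) each held 1 match to TTGCNNAA, and the C1s2 window (chr6:124636086-124636335, minus strand) held no match. A C1s1 window from another RefSeq start (chr6:124542322-124542571), which overlaps an exon, held no match either, so the C1s1 match depends on the start used. Among the other selected genes Cd59a held 1 match, to GAAANNGAAA, and C1ra, Cd55 and Cd46 held none. The window of C1rb, which was not a selected gene, held 2 matches, to TTCNNNGAA and TTGCNNAA, and GENCODE exons cover 136 of its 250 bases. A match describes the letters and not binding.
C1s1: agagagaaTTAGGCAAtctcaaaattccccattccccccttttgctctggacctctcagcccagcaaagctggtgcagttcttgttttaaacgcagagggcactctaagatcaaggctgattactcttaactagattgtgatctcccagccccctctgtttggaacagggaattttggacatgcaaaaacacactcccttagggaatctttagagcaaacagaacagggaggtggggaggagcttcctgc
C1s2: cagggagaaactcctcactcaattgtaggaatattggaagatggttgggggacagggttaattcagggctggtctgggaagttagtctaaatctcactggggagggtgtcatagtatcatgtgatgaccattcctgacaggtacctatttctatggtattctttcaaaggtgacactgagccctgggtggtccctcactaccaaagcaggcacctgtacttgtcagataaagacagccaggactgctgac
C3: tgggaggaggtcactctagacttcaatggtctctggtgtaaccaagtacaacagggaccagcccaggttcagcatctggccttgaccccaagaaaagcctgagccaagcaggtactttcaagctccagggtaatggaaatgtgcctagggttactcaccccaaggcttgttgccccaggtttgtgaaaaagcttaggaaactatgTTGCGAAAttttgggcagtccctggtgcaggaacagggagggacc
The windows of C1ra and C1rb shared a stretch of 99 aligned bases, of which 93 were identical, at bases 99 to 1 before the RefSeq start of C1ra and 250 to 152 before that of C1rb. GENCODE exons cover 216 of the 250 bases of the C1ra window, so much of it is annotated as transcribed. The best local match between the windows of C1s1 and C1s2 spanned 11 bases, of which 10 were identical.

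C3 is the component on which all pathways converge, and lies at chr17:57203970-57228136 on the minus strand. C3 had 40.6 FPKM in AOC11, 24.0 in AOC11-LN, 42.2 in AOC3 and 8.01 in AOC3-LN. Both primary tumor lines were at about the same level, both lymph node lines were lower, and AOC3-LN was the lowest of the 4. About 6809 fragments lay behind the value in AOC11, 3883 in AOC11-LN, 7065 in AOC3 and 1130 in AOC3-LN. C3 was thus well sampled in every line. AOC3 was 5.27 times AOC3-LN, a log2 difference of -2.20 for AOC3-LN minus AOC3. AOC11 was 1.69 times AOC11-LN, and the log2 difference of -0.74 was not past the fold. Between the lymph node lines the log2 difference was 1.37, and between the primary tumor lines it was -0.09.

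C4b and Cfb act beside C3, C4b in the classical pathway and factor B (Cfb) in the alternative pathway. C4b was listed at 0 FPKM in both AOC3 lines, at 0.0114 in AOC11 and at 0.0059 in AOC11-LN. These values correspond to about 2.0 and 1.0 fragments, so no difference was detectable at this depth. Its copy C4a, annotated as a processed transcript, had 0.180 FPKM in AOC11, 0.0460 in AOC11-LN, 0.324 in AOC3 and 0.300 in AOC3-LN. The longest transcripts of C4a and C4b were 95.9% identical, and 16.5% of the 100-base windows of C4a occurred unchanged in C4b. Fragments may therefore have been divided between these copies too. Cfb had 0.168 FPKM in AOC11, 0.200 in AOC11-LN, 0.351 in AOC3 and 0.112 in AOC3-LN. Cfb overlaps a readthrough gene, Gm20547, which may take some of its fragments. The lines with C1r and C1s expression therefore had C4b at or below 0.0114 FPKM, and C2, whose product C1s cleaves, was at 0.218 FPKM in AOC11, 0.164 in AOC11-LN, 0.556 in AOC3 and 0.758 in AOC3-LN, lower in the AOC11 lines. The C1q chains C1qa, C1qb and C1qc, which carry C1r and C1s, were listed at 0 in all 4 lines.

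Serping1 encodes the C1 inhibitor, the plasma protein that inactivates C1r and C1s. It had 0.0373 FPKM in AOC11, 0.0426 in AOC11-LN, 0.120 in AOC3 and 0 in AOC3-LN. Those values rest on about 2.0 fragments in AOC11, 2.2 in AOC11-LN, 6.5 in AOC3 and 0 in AOC3-LN. The inhibitor was thus low in all 4 lines, including the AOC11 lines that had the proteases. Clu, which encodes clusterin, a binder of the pore complex, was the one fluid-phase regulator of 10 listed that reached 1 FPKM.

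Cd59a blocks pore assembly at the cell surface and lies at chr2:104095801-104115354 on the plus strand. Cd59a had 0.326 FPKM in AOC11, 2.71 in AOC11-LN, 0.0388 in AOC3 and 0.0230 in AOC3-LN. AOC11-LN stood above the other 3 lines, AOC11 was next, and both AOC3 lines were near 0. About 17.9 fragments lay behind the value in AOC11, 145 in AOC11-LN, 2.1 in AOC3 and 1.1 in AOC3-LN. The log2 difference was 1.70 between the lymph node lines and 1.25 for AOC11-LN minus AOC11. It was 0.44 between the primary tumor lines, and 1.86 there with a pseudocount of 0.1, which is past the fold. Mice have a second copy of this inhibitor gene as well. Cd59b had 2.04 FPKM in AOC11, 1.40 in AOC11-LN, 2.49 in AOC3 and 2.68 in AOC3-LN. Cd59b was the higher of the 2 copies in AOC3, AOC3-LN and AOC11, and Cd59a in AOC11-LN. The coding sequences were 75.1% identical and shared no 100-base window.

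Cd55 and Cd46 encode inhibitors that act on the C3-splitting enzymes. Cd55 had 0.110 FPKM in AOC11, 0.0130 in AOC11-LN, 0.248 in AOC3 and 0.0874 in AOC3-LN. Cd46 had 0.0803 FPKM in AOC11, 0.105 in AOC11-LN, 0.0814 in AOC3 and 0.0904 in AOC3-LN. Cd46 was thus at one low level in all 4 lines, and Cd55, which overlaps the antisense gene Gm16083, was low in all 4 with the lowest value in AOC11-LN. A related mouse inhibitor of the same step, Cr1l, had 20.7 FPKM in AOC11, 23.6 in AOC11-LN, 6.31 in AOC3 and 4.08 in AOC3-LN. Cr1l was the most abundant of the 8 listed membrane regulators in each line and was past the fold at both sites, with log2 differences of 1.56 and 2.13.

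Counts of the 9 genes stand beside the share of all 14165 genes past the fold. Between the primary tumor lines 2 of the 9 genes (C1s1 and C1ra) were past the fold, both higher in AOC11, while 11.9% of all genes were past it in either direction and 5.69% were higher in AOC11. Between the lymph node lines 4 of 9 (C1s1, C1ra, C3 and Cd59a) were past the fold, all higher in AOC11-LN, beside 16.3% of all genes in either direction and 8.69% higher in AOC11-LN. At both sites in the same direction the count was 2 of 9, again C1s1 and C1ra, beside 4.81% of all genes in either direction and 2.61% higher in the AOC11 lines. The comparisons within a mouse called fewer genes over the whole table. For AOC3-LN minus AOC3 it was 1 of 9 (C3, lower), beside 5.53% of all genes and 3.42% lower in AOC3-LN. For AOC11-LN minus AOC11 it was 2 of 9 (C1s1 lower, Cd59a higher), beside 8.11% of all genes and 3.14% lower in AOC11-LN. The 9 genes were chosen with these values known, and 5 of them could not be counted because they stayed below 1 FPKM, so nothing is read from the shares.

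**Figure D2:**
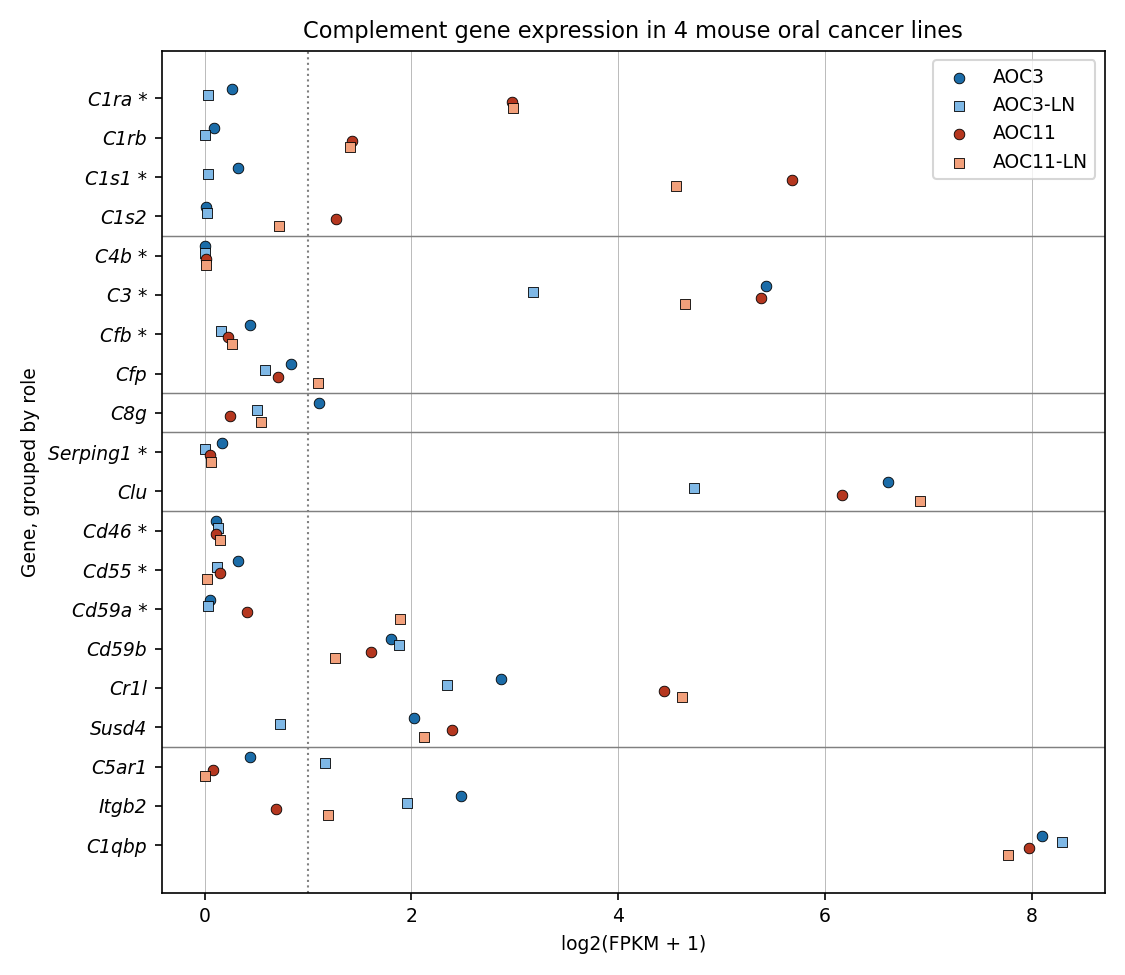
Each row is a complement gene, grouped by role and marked with an asterisk for the 9 selected genes, and each point is log2(FPKM + 1) in 1 of the 4 lines, with the dotted line at 1 FPKM. C1ra, C1rb, C1s1 and C1s2 are higher in both AOC11 lines, C3 and Clu are lowest in AOC3-LN, and Cd55, Cd46, C4b, Cfb and Serping1 lie left of the line in all 4.

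The wider list held 57 complement genes, of which 53 had an entry in the table and 15 reached 1 FPKM. Mbl1, Mbl2, C8a and C8b were not analysed here. Past the fold between the primary tumor lines were 6 of these 15 (5 higher and 1 lower in AOC11), beside 11.9% of all genes, and between the lymph node lines 10 (8 higher and 2 lower in AOC11-LN), beside 16.3%. The count was 3 for AOC3-LN minus AOC3 (all lower), beside 5.53%, and 2 for AOC11-LN minus AOC11 (1 higher and 1 lower), beside 8.11%. At both sites in the same direction the count was 5, beside 4.81% of all genes, with 4 higher in the AOC11 lines (C1ra, C1rb, C1s1 and Cr1l) and 1 lower, Itgb2, the shared chain of the complement receptor integrins. Itgb2 was no longer past the fold between the lymph node lines without quantile normalization (-0.77) or with median scaling (-0.85), which left 4 genes at both sites. With a pseudocount of 0.1 the count was 8. C1s2 and Cd59a, higher in the AOC11 lines, and C5ar1, lower there (-1.35 and -3.91), passed at both sites too. Calls over all 14165 genes rose from 1692 to 2636 between the primary tumor lines and from 2304 to 3377 between the lymph node lines. Requiring 5 FPKM left 3 (C1ra, C1s1 and Cr1l) of 6 listed genes counted. These checks of the count were added after the values were seen. The share of all genes at both sites is not given for them. The median log2 difference over the 15 genes was 0.04 between the primary tumor lines and 1.20 between the lymph node lines, where all 14165 genes had medians of 0.02 and -0.03. The 15 genes include several that reached 1 FPKM in a single line, and C1ra, C1rb and C1s1 reached it only in the AOC11 lines. The filter thus fixes the direction of these genes in part, so nothing is read from the counts and medians of this list.

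Clu had 70.6 FPKM in AOC11, 120 in AOC11-LN, 96.5 in AOC3 and 25.5 in AOC3-LN. It was lowest in AOC3-LN and highest in AOC11-LN, and its log2 difference was 2.10 between the lymph node lines. Susd4, a membrane regulator, had 4.25 FPKM in AOC11, 3.36 in AOC11-LN, 3.06 in AOC3 and 0.652 in AOC3-LN. C3, Clu and Susd4 were the 3 listed genes past the fold for AOC3-LN minus AOC3, with log2 differences of -2.20, -1.87 and -1.18.

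The receptor genes of the list were mostly low. C1qbp, whose protein binds C1q and resides largely in mitochondria, was the exception at 251 FPKM in AOC11, 218 in AOC11-LN, 273 in AOC3 and 313 in AOC3-LN. Itgb2 had 0.615 FPKM in AOC11, 1.29 in AOC11-LN, 4.57 in AOC3 and 2.89 in AOC3-LN, which put both AOC11 lines below both AOC3 lines. C5ar1, the receptor for the fragment C5a, had 0.0593 FPKM in AOC11, 0 in AOC11-LN, 0.351 in AOC3 and 1.24 in AOC3-LN. C1qbp, Itgb2 and C5ar1 were thus each lower in both AOC11 lines than in both AOC3 lines, C1qbp by less than the fold. They differed in which AOC3 line was highest. The share of all genes that divide this way is not given. Cfp, which stabilizes the alternative pathway enzyme, had 0.631 FPKM in AOC11, 1.14 in AOC11-LN, 0.785 in AOC3 and 0.501 in AOC3-LN. C8g of the pore complex reached 1.15 FPKM in AOC3 and overlaps the gene Fbxw5. C1qa, C1qb, C1qc, Cfd, C6, C7, C4bp, Cd55b, Vsig4, Colec10, Fcnb, Cpn2 and Cfhr2 were listed at 0 in all 4 lines. Those listed above 0 in at least 1 line and below 1 FPKM in all 4 included C2, C4a, Fcna, Colec11, Masp1, Masp2, Hc, C9, Cfi, Vtn, Cpn1, Csmd1, C3ar1, C5ar2, Cr2, Itgam, Itgax and Cd93, beside the 5 selected genes above. Among the listed genes that reached 1 FPKM, the value closest to the fold from inside was -1.07 (Itgb2) and from outside -0.91 (Cd59b), both between the lymph node lines.

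The genes most like C1s1 over the 4 lines were found by the Euclidean distance of mean-centered normalized log2 values among protein-coding genes. The nearest 5 were Arhgdib, Krt7, Cryab, Clec2g and Msx2, at distances from 0.54 for Arhgdib to 1.74 for Msx2. Arhgdib had 48.8 FPKM in AOC11, 33.1 in AOC11-LN, 0.893 in AOC3 and 0.0957 in AOC3-LN. The keratin Krt7 had 635 FPKM in AOC11, 306 in AOC11-LN, 13.0 in AOC3 and 5.91 in AOC3-LN. The nearest 5 to C3 were Ppp1r12b, Mical2, Pdgfb, Dock11 and Wls, at distances from 0.29 for Ppp1r12b to 0.45 for Wls. Ppp1r12b, a subunit of myosin phosphatase, had 57.7 FPKM in AOC11, 25.5 in AOC11-LN, 48.4 in AOC3 and 10.0 in AOC3-LN.

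Markers of other cell types were read beside these results, since fibroblasts, macrophages and liver cells make complement. All 8 epithelial markers reached 1 FPKM, summing to 3371 FPKM in AOC11, 3358 in AOC11-LN, 3464 in AOC3 and 3500.1 in AOC3-LN, led by Krt18 in each line. These sums were close while 3 members, named after their values were seen, differed between the mice at both sites. Krt5 had 4.99 FPKM in AOC11, 17.0 in AOC11-LN, 499 in AOC3 and 275 in AOC3-LN. Trp63 was also lower in the AOC11 lines (log2 differences of -1.24 and -1.0003), while Krt7, given above, was higher there (5.41 and 5.37). The second Trp63 value, from 0.841 FPKM in AOC11-LN and 2.10 in AOC3-LN, lies at the edge of the fold, and its call under other settings is not given. None of 8 fibroblast markers reached 1 FPKM, and they summed to 0.511 FPKM in AOC11, 1.17 in AOC11-LN, 0.246 in AOC3 and 0.323 in AOC3-LN, with Col1a1 or Pdgfra the most abundant. Col1a1 was higher in the AOC11 lines, as C1s1 and C1ra were, at 0.308 FPKM in AOC11, 0.407 in AOC11-LN, 0.0411 in AOC3 and 0.0153 in AOC3-LN, or about 59.9, 76.2, 8.0 and 2.5 fragments. Dcn and Thy1 were also higher in each AOC11 line than in each AOC3 line, on at most about 8.5 and 6.4 fragments. The other markers did not divide that way, as Col1a2 was highest in AOC3, at 0.0611 FPKM, Pdgfra was higher in AOC3-LN (0.232) than in AOC11 (0.152), and Col3a1 was at 0 in AOC11 and 0.0607 in AOC3-LN. The part of such cells in the C1s1 and C1ra values was not tested. None of 5 liver cell and none of 6 endothelial markers reached 1 FPKM in any line. Liver cell markers summed to at most 0.109 FPKM, led by Apoa1 in AOC11, and endothelial markers to at most 0.481, led by Pecam1, with Ttr and Emcn at 0 in all 4 lines. Transcripts of liver and endothelial cells were therefore at or near 0. Of 7 T cell markers Trac alone reached 1 FPKM, and the list summed to 2.13 FPKM in AOC11, 2.11 in AOC11-LN, 0.965 in AOC3 and 1.49 in AOC3-LN, while Cd3e, Cd4, Cd8a and Cd2 were at 0. Of 8 macrophage markers 3 did (Csf1r, Cd68 and Cd14), and the list summed to 33.8 FPKM in AOC11, 16.9 in AOC11-LN, 21.8 in AOC3 and 18.9 in AOC3-LN. The defining marker Adgre1 was at 0 in all 4 lines, Ptprc was at or below 0.0640 FPKM and Lyz2 at or below 0.0266. Csf1r, the most abundant in AOC11, had 20.8 FPKM in AOC11, 6.01 in AOC11-LN, 0.995 in AOC3 and 0.435 in AOC3-LN, so it was high in the same 2 lines as C1s1. The other macrophage markers were mixed. Cd68 and Mrc1 were lower in both AOC11 lines. Aif1 had 0 FPKM in AOC11, 0.102 in AOC11-LN, 0.281 in AOC3 and 0.115 in AOC3-LN, on at most about 6.7 fragments. About 2.4 fragments lay behind the Aif1 value in AOC11-LN and 2.3 in AOC3-LN, so no difference is read between these lines. Cd68 had 6.15 FPKM in AOC11, 4.45 in AOC11-LN, 13.0 in AOC3 and 8.79 in AOC3-LN, and Mrc1, named after its values were seen, had 0.0284, 0.0059, 0.211 and 0.913 FPKM in the same order. Cd14 was nearer level, at 6.83, 6.27, 7.31 and 8.55 FPKM, and Ptprc was at 0.0392, 0.0488, 0.0067 and 0.0640. Whether Csf1r and C1s1 transcripts came from the same cells was not tested.

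Complement genes are known targets of interferon, interleukin-6 and NF-kappa-B signaling, and 29 genes of those pathways were read on the same scale. Of the 29, 27 reached 1 FPKM, and 3 were higher and 1 lower in the AOC11 line at both sites, beside 4.81% of all genes in either direction and 2.61% higher. Those were the interferon-gamma receptor chain Ifngr2 and the NF-kappa-B subunits Nfkb1 and Relb, all higher, and the cytokine Il1a, lower. Relb had 22.1 FPKM in AOC11, 21.7 in AOC11-LN, 7.27 in AOC3 and 5.32 in AOC3-LN. Between the lymph node lines 9 were higher and 2 lower in AOC11-LN, where 16.3% of all genes were past the fold and 8.69% were higher. Between the primary tumor lines 3 were higher and 1 lower in AOC11, where 11.9% of all genes were past it and 5.69% were higher. For AOC3-LN minus AOC3, 3 were past the fold, all lower (Irf1, Tnf and Nfkbia), beside 5.53% of all genes and 3.42% lower. The interferon-induced factor Irf1 had 66.9 FPKM in AOC11, 96.5 in AOC11-LN, 68.1 in AOC3 and 21.1 in AOC3-LN, lowest in AOC3-LN as C3 and Clu were. Il6 was at 0 in AOC3, AOC11 and AOC11-LN and at 0.0874 FPKM in AOC3-LN. The part of these pathways in the complement values was not tested.

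For AOC11-LN minus AOC11, 2 of the 29 were past the fold, both lower (Il1a and Tnf), beside 8.11% of all genes and 3.14% lower. Tnf had 1.97 FPKM in AOC11, 0.437 in AOC11-LN, 2.23 in AOC3 and 0.324 in AOC3-LN, low in both lymph node lines. Il1a had 69.1 FPKM in AOC11, 11.3 in AOC11-LN, 173 in AOC3 and 136 in AOC3-LN. C3 was also lower in the lymph node line of each mouse, by less in mouse 11.

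**Figure D3:**
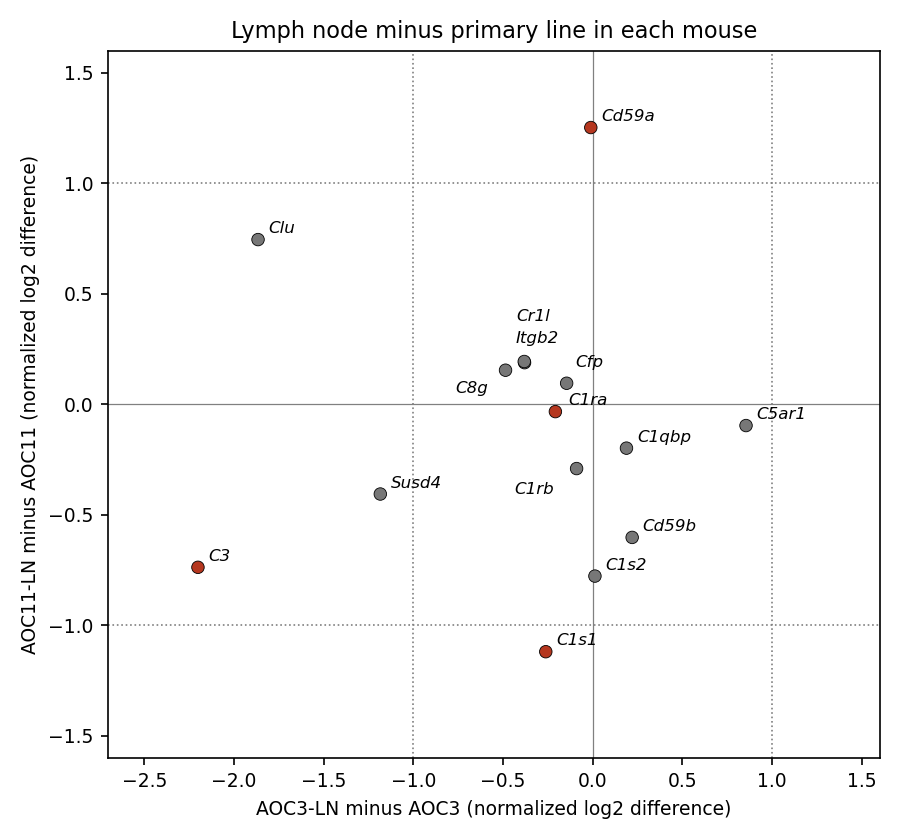
Each point is 1 of the 15 complement genes that reached 1 FPKM, placed by its normalized log2 difference of the lymph node line minus the primary tumor line in mouse 3 (x axis) and mouse 11 (y axis), with the selected genes in red and dotted lines at 1 and -1. C3 lies at -2.20 and -0.74, Clu at -1.87 and 0.75, and Cd59a at -0.01 and 1.25.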

How the data were processed

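RNA from 4 cultured lines was sequenced with a stranded kit as paired reads, 1 library per line. The submitters' processing notes name Trim Galore, TopHat2, Cufflinks and mm10, and the authors deposited FPKM values for 34721 entries (34685 gene identifiers). The methods name GENCODE M21 and default settings, and all identifiers matched that release. The values were put on log2(FPKM + 1) and quantile-normalized over all entries, and genes that reached 1 FPKM somewhere were compared by a fold of 2. No statistical test between lines was run, with 1 library per line. Depth was estimated from the spacing of low values, and fragments per gene from its longest transcript, which is approximate for genes with several transcripts. The selected genes and all gene lists were chosen with earlier results of these data known. Genes named were the 9 selected, the wider complement, regulator and marker lists, and the 5 nearest genes to C1s1 and C3. Neighboring genes were named from their position. A few genes of the wider list are not reported here. The procedure for fold calls was checked on simulated data, which is no check of the differences between these lines. Python 3.11.15, numpy 2.4.6, pandas 2.3.3 and Biopython 1.88 were used.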

Additional observations from a re-analysis of the deposited data

Results flagged for a closer look

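Clu, which encodes the secreted regulator clusterin, differed in opposite directions from primary tumor line to lymph node line in the 2 mice. In mouse 3 its level went from 96.5 FPKM to 25.5 FPKM, or -1.87 on the log2 scale for AOC3-LN minus AOC3. In mouse 11 it went from 70.6 FPKM to 120 FPKM, or 0.75 on the log2 scale for AOC11-LN minus AOC11, which is not past the fold. This opposition was not tested, since each line was 1 library.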

How the results depend on the processing

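Of 104 counts recomputed under other settings, 88 were within 1.5 times the reported count and 16 were not. With a pseudocount of 0.1, genes past the fold numbered 2636 between the primary tumor lines, 1443 for AOC3-LN minus AOC3 and 2074 for AOC11-LN minus AOC11. For AOC3-LN minus AOC3 it gave 3 of the 9 selected genes and 7 of the wider list, C1s1 and C1ra among them at -1.34 and -1.14, where AOC3-LN rests on about 2.0 fragments each. Requiring 5 FPKM left fewer genes to count, 6 of the wider list. Of these, 3 were past the fold between the primary tumor lines, 5 between the lymph node lines and 1 for AOC11-LN minus AOC11. In that last comparison 1 selected gene was left. Beside them, 1197, 1662 and 842 of 10565 genes were past the fold in the same 3 comparisons. A fold of 1.5 gave 4086, 5095, 1948 and 3482 genes in the 4 comparisons, and 6 of the wider list for AOC11-LN minus AOC11. With protein-coding genes only, 473 genes passed for AOC3-LN minus AOC3 and 689 for AOC11-LN minus AOC11. Of 444 log2 differences of single complement genes, none past the fold changed sign, and the 23 that moved by more than 1.5-fold did so with the pseudocount of 0.1. Without quantile normalization, 66.0% of the genes past the fold between the lymph node lines were higher in AOC11-LN, against 53.4%, and with median scaling 72.0% were higher for AOC11-LN minus AOC11, against 61.3%. No paired test over the 2 mice was run, and the lymph node line and the primary tumor line were compared within each mouse. Among the protein-coding neighbors of the C1r and C1s cluster, a check added after the values were seen, a fold of 1.5 gave 2 past it at both sites (C1rl and Usp5), against 0. The share of all genes at both sites is not given for that fold. Values under about 10 fragments carry large counting error, and paralogs or overlapping genes may share fragments.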

Other observations

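C5ar1 and C5ar2, the neighboring receptors for C5a on chromosome 7, were both highest in AOC3-LN, a pair chosen after their values were seen. C5ar2 had 0.0916 FPKM in AOC11, 0.0868 in AOC11-LN, 0.106 in AOC3 and 0.486 in AOC3-LN, and C5ar1 had 1.24 in AOC3-LN with at most 0.351 in the other lines. Their coding sequences were 53.1% identical and shared no 100-base window. Hc, which encodes the C5 protein that yields C5a, was at or below 0.0751 FPKM in all 4 lines.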
